A study of Mus musculus with 6 samples.

Results

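The genes described are 31 genes of cholesterol synthesis, uptake and export, measured by RNA-seq in cultured mouse aortic cells with and without Nt5e. They were taken by name from the 25683 genes of the deposited table, and all 31 were found. By role they comprise 7 genes of the mevalonate and isoprenoid steps, 11 of the squalene and sterol steps, 5 of the control of the SREBP factors, 4 of lysosomal egress, transfer and esterification, and 4 of the LXR receptors and export pumps. Of these, 30 had enough reads to be tested. The exception was Abcg1, a pump that passes cholesterol to high-density lipoprotein, which had 3 reads in knock-out library 1 and 0 in the other 5.

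Cells build cholesterol from acetyl-CoA through mevalonate, farnesyl diphosphate and squalene, the last of which is closed into the ring of lanosterol and then trimmed to cholesterol. When sterol in the membrane of the endoplasmic reticulum is low, SCAP carries SREBP factors to the Golgi, where they are cut and freed to switch on the genes of this pathway, and the INSIG proteins hold SCAP back when sterol is plentiful. The LXR receptors respond to oxysterols, the oxidised forms of cholesterol, and switch on export. Cholesterol taken up with lipoproteins leaves the lysosome through NPC2 and NPC1, and smooth muscle cells of the artery wall that store it as ester take on a foam-cell appearance.

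Polyadenylated RNA of 6 libraries was compared, 3 from cells labelled Nt5e Knock-out (libraries 1, 2 and 3) and 3 from cells labelled Nt5e-WT (libraries 4, 5 and 6). Nt5e encodes CD73, the surface enzyme that makes adenosine from AMP. All came from a primary line of aortic vascular smooth muscle cells grown at 10% serum and then held for 48 h at 0.5% serum, and the labels give neither the age of the mice nor how the gene was disrupted. The labels do not say whether these are separate animals or cultures, so p-values cover only the scatter among these libraries, and that scatter may be technical. The titles share prefixes that the labels do not explain: KO2 for knock-out libraries 1 and 2, KO5 for library 3, WT10 for wild-type library 4 and WT11 for libraries 5 and 6. Each genotype thus carries 2 prefixes, which the test of 3 libraries a genotype does not take into account. In bulk RNA, fewer cells of a type and less RNA per cell cannot be told apart.

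Libraries held 19919095 to 23669252 exon reads, wild-type library 5 being the deepest. Levels are given as CPM, the exon reads of a gene scaled to the adjusted library size, with the libraries of each genotype in numerical order. Nt5e stood at 0.952, 0.0471 and 0.106 CPM in the knock-out and 27.4, 28.3 and 22.5 CPM in the wild type. Wild-type libraries 4 and 6 were close to each other and so were knock-out libraries 2 and 3, with a median difference per gene of 0.077 and 0.078 on the log2 scale, whereas wild-type library 5 differed from 4 and 6 by 0.12 and knock-out library 1 from 2 and 3 by 0.38. Of 9 smooth muscle markers 5 were tested, with 1 higher and 1 lower in the knock-out, and their summed level was 136 to 206 CPM in the wild type and 177 to 698 CPM in the knock-out. Of the defining ones, Des and Myocd were at or near 0 in all libraries. Myh11 had 0.216, 2.55 and 3.56 CPM in the knock-out and at most 0.134 CPM in the wild type. Acta2 had 73.8, 546 and 525 CPM in the knock-out and 69.2, 51.9 and 101 CPM in the wild type, with overlap. The higher marker was Smtn, with 82.2, 108 and 104 CPM in the knock-out and 63.8, 63.6 and 74.4 CPM in the wild type. Cnn1, the lower one, did not exceed 3.20 CPM. Tagln stood at 14.9 CPM or more in every library. All 6 tested markers of mesothelium and epithelium were lower in the knock-out, with a summed level over the 8 listed of 2369 to 2478 CPM in the wild type and 62.2 to 153 CPM in the knock-out. Of 7 fibroblast markers 2 were higher (4484 to 4635 CPM against 4190.0 to 13208 CPM, summed). Markers of leukocytes (at most 16.9 CPM summed over 8, with Ptprc at 0), endothelium (at most 6.79 CPM over 7), adipocytes (at most 1.93 CPM over 5) and hepatocytes (at most 0.0927 CPM over 4) were scarce.

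Between genotypes 1 of the 30 tested cholesterol genes was called. This was Acat2, lower in the knock-out, and no member was called higher, which is set against 27.8% of the 12660 tested genes (14.1% higher and 13.7% lower; edgeR quasi-likelihood F test, p adjusted by Benjamini-Hochberg over all of them, threshold 0.05). At an unadjusted p under 0.05 there were 7 of 30 members (23.3%), 6 lower and 1 higher, against 42.2% of all tested genes. The log2 fold changes, knock-out over wild type, ran from -0.90 to 0.51 with a median of -0.17, against a median of 0.018 over all tested genes, and 21 of the 30 were below 0. Their 95% intervals lay within 1 log2 unit of 0 for 23 of the 30. For Acat2, Mvd, Fdft1, Lss, Cyp51, Msmo1, Ebp, Srebf1, Scap and Soat1 every knock-out value was below every wild-type value, and for Nr1h2 every knock-out value was above. These 11 members compare with 49.7% of all tested genes whose groups did not overlap (25.5% below and 24.3% above).

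The count of called members depended on single libraries. Without knock-out library 1, which leaves the close pair 2 and 3, there were 4 higher (Dhcr7, Npc1, Npc2 and Nr1h2) and 9 lower (Acat2, Ebp, Insig2, Mvd, Pmvk, Sc5d, Scap, Srebf1 and Tm7sf2), and 66.2% of all tested genes were called (32.6% higher and 33.7% lower). Without wild-type library 5 none was called, the median of the members was 0.0082 and 1671 of the 12824 genes then tested passed. No member was called either without knock-out library 2 or 3, or without wild-type library 4 or 6. In these fits 1606, 1642, 1120 and 1386 of all tested genes passed, so the loss of the call was not particular to library 5. DESeq2 called 1 member higher and 4 lower, with 37.0% of all genes, and the fit with a 1 or 2 in the titles as a block called 1 higher (Nr1h2) and 7 lower (Acat2, Ebp, Mvd, Pmvk, Scap, Srebf1 and Tm7sf2), with 35.6%. With the libraries of each title prefix summed, an alternative chosen after seeing the data that leaves 2 units a genotype, 4 members were lower (Acat2, Cyp51, Scap and Srebf1) and 29.0% of all genes were called. Total counts without TMM gave 2 lower (26.7% of all genes), and unique reads (28.1%) and close pairs summed (0.130%) gave none.

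**Figure D1:**
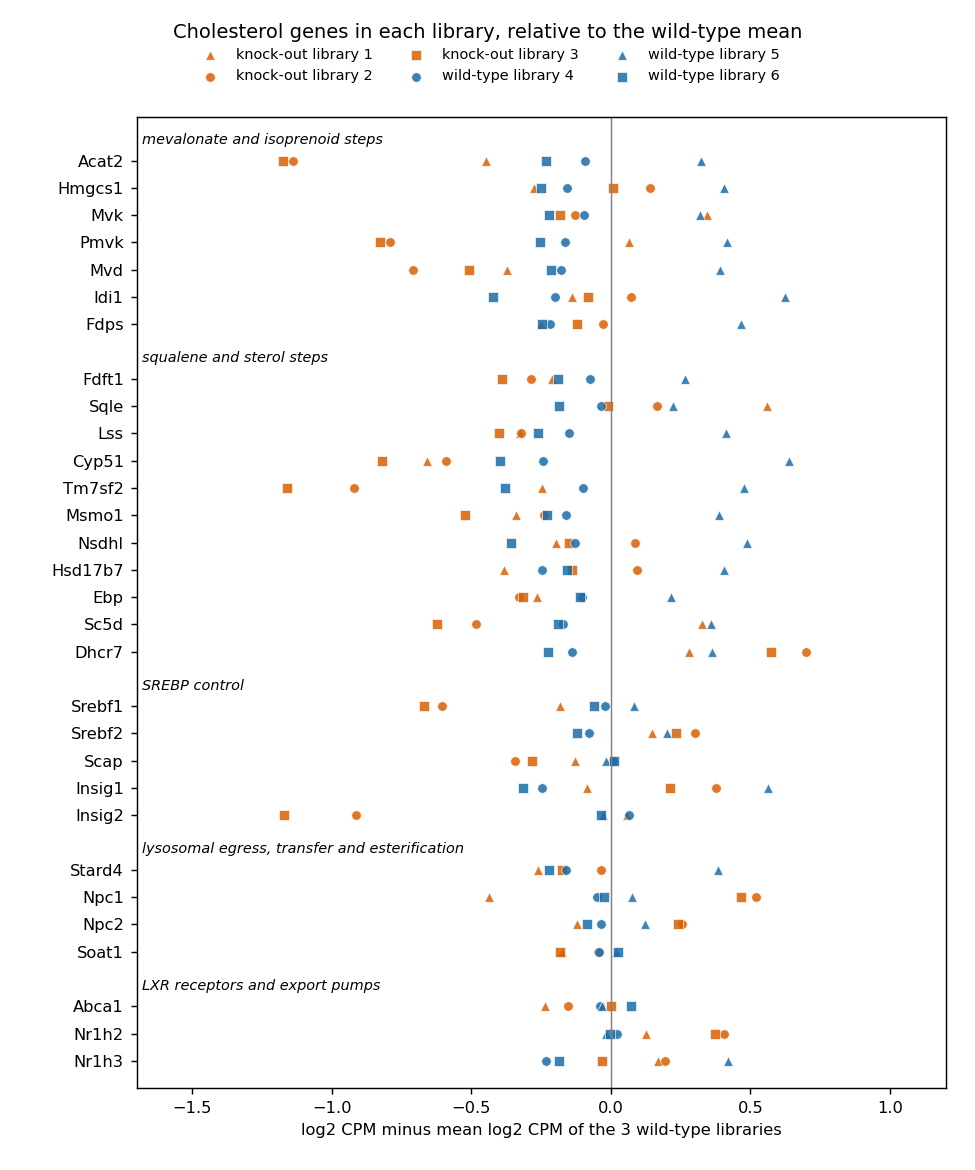
Each point is the log2 CPM of a gene in a library minus the mean log2 CPM of the 3 wild-type libraries, for the 30 tested members ordered by role, with knock-out libraries in orange and wild-type libraries in blue. Wild-type library 5 (blue triangles) is the rightmost wild-type point in all 18 synthesis genes, and knock-out library 1 (orange triangles) stands apart from libraries 2 and 3 in genes such as Insig2 and Npc1.

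In the mevalonate and isoprenoid steps 1 of 7 genes was called, Acat2, and the median log2 fold change was -0.17. Acat2 encodes the cytosolic thiolase that joins acetyl-CoA units at the head of the pathway (it is not the esterifying enzyme that shares the name ACAT). The gene had 49.3, 30.5 and 29.7 CPM in the knock-out (libraries 1, 2 and 3) and 63.2, 84.2 and 57.4 CPM in the wild type (4, 5 and 6). The knock-out libraries were all lower, library 1 being the nearest to the wild type, and the means were 36.5 ± 11.1 and 68.3 ± 14.1 CPM (SD, n = 3 libraries each). The log2 fold change was -0.90 ± 0.25 (SE; edgeR adjusted p = 0.0439). This call is uncertain. Only 76.6% of its reads were unique, and on unique reads alone the log2 fold change was -0.87 (edgeR adjusted p = 0.0536). On all reads the adjusted p was 0.255 with each close pair of libraries summed. It was at most 0.134 and no longer under 0.05 when any library but knock-out 1 was left out (0.00102 to 0.255 over all alternatives). Its neighbour Acat3 lies beside it on the minus strand of chromosome 17 and itself fell in the knock-out, with 6.23, 0.424 and 0.745 CPM in the knock-out and 39.1, 35.7 and 34.2 CPM in the wild type (log2 fold change -3.85 ± 0.95, SE; edgeR adjusted p = 0.0313; 59.9% of reads unique). Reads of the pair cannot be fully told apart. The mesothelial and epithelial markers were lower in the same 3 libraries, and their part in the difference of Acat2 was not tested.

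Hmgcs1 (ENSMUSG00000093930, chr13:119690379-119708260, plus strand), the synthase that adds the next acetyl unit, had 92.6, 124 and 113 CPM in the knock-out and 100.5, 148 and 94.2 CPM in the wild type. The groups overlapped and the highest library was wild-type library 5. The log2 fold change was -0.062 ± 0.21 (SE; 95% interval -0.57 to 0.44). The 250 bases before its RefSeq start (chr13:119690101-119690350, plus strand, GRCm38.p6) are shown because they hold both kinds of letters known from sterol-regulated promoters. Capitals mark the CCAAT box, the site of NF-Y, which reads ATTGG on the opposite strand, and the SREBP element TCACNCCAC. The element begins 137 bases before the start.
Hmgcs1: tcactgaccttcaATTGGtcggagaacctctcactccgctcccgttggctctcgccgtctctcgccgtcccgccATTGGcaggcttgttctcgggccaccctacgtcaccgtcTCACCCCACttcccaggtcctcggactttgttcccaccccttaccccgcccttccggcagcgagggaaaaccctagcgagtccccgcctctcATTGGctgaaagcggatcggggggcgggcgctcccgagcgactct

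The kinases that phosphorylate mevalonate were low and did not pass the test. Mvk had 30.9, 22.2 and 21.4 CPM in the knock-out and 22.8, 30.4 and 20.8 CPM in the wild type, with knock-out library 1 and wild-type library 5 level at the top. Pmvk had 12, 6.60 and 6.44 CPM in the knock-out and 10.3, 15.4 and 9.64 CPM in the wild type, again highest in libraries 1 and 5. Mvd (ENSMUSG00000006517, chr8:122433601-122443422, minus strand), which decarboxylates the product to isopentenyl diphosphate, had 14, 11 and 12.7 CPM in the knock-out and 16.0, 23.8 and 15.6 CPM in the wild type, every knock-out value being below every wild-type value, at a log2 fold change of -0.55 ± 0.20 (SE; edgeR adjusted p = 0.0923). Its promoter (chr8:122443423-122443672, minus strand, GRCm38.p6) is shown for its pair of CCAAT boxes, in capitals, 60 and 27 bases before the start and in opposite orientation.
Mvd: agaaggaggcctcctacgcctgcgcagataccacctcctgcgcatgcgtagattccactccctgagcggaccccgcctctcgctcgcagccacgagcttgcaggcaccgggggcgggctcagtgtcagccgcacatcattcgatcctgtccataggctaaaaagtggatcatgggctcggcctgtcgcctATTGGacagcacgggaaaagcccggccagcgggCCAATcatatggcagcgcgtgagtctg

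Idi1, the isomerase that makes the reactive isoprene unit, had 75.3, 87.3 and 78.4 CPM in the knock-out and 72.2, 128 and 61.9 CPM in the wild type. The 3 knock-out values lay inside the wide wild-type range, which library 5 alone opened. Fdps, which builds farnesyl diphosphate, had 50.3, 58.7 and 55.0 CPM in the knock-out and 51.5, 82.8 and 50.4 CPM in the wild type. Its values also overlapped and library 5 was the highest, but knock-out library 1 lay just below the lowest wild-type value. Only 42.2% of its reads were unique and it shares 1124 exon bases with Gm43738 on the same strand, so its level is uncertain. Without wild-type library 5 the log2 fold changes of Hmgcs1, Idi1 and Fdps turned from -0.062, -0.12 and -0.17 to 0.17, 0.26 and 0.10, none of them called in either case.

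In the squalene and sterol steps none of 11 genes was called, and 2 had an unadjusted p under 0.05 (Cyp51 and Ebp). The median log2 fold change was -0.31, and 9 of the 11 were below 0. Fdft1, the squalene synthase that commits farnesyl diphosphate to sterols, had 98.5, 93.6 and 87.0 CPM in the knock-out and 108, 137 and 99.97 CPM in the wild type, without overlap but with library 6 close to knock-out library 1. Fdft1 shares 774 exon bases with Ctsb on the opposite strand. Sqle, the squalene epoxidase and a control point of the pathway, had 179, 136 and 120.4 CPM in the knock-out and 118, 141 and 107 CPM in the wild type. Knock-out library 1 was the highest of all for Sqle and the other 5 libraries were mixed. Lss, which closes the ring to lanosterol, had 52.5, 52.6 and 49.9 CPM in the knock-out and 59.3, 87.7 and 54.9 CPM in the wild type, the 3 knock-out values being within 3 CPM of each other.

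Cyp51, the demethylase of lanosterol, showed the widest wild-type spread of the set, with 86.0, 90.1 and 76.9 CPM in the knock-out and 115, 212 and 103 CPM in the wild type. All knock-out values were lower, but library 5 was at about 1.94 times the level of libraries 4 and 6. The log2 fold change was -0.76 ± 0.29 (SE; edgeR adjusted p = 0.0963) with all libraries and -0.37 (adjusted p = 0.0889; 0.0309 to 0.273 over all alternatives) without library 5. Tm7sf2, a sterol reductase, shares 532 exon bases with Vps51 on the same strand and was low, at 10.2, 6.36 and 5.37 CPM in the knock-out and 11.3, 16.9 and 9.31 CPM in the wild type, with knock-out library 1 inside the wild-type range and libraries 2 and 3 beneath it. Msmo1, the methylsterol oxidase, had 76.3, 81.6 and 67.0 CPM in the knock-out and 86.3, 126 and 82.3 CPM in the wild type, without overlap, library 2 of the knock-out coming within 1 CPM of library 6.

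Nsdhl, a dehydrogenase that removes the carbon left by Msmo1, had 32.5, 39.5 and 33.5 CPM in the knock-out and 34.0, 52.3 and 29.0 CPM in the wild type. Hsd17b7, the keto-reductase of the same cycle, had 20.5, 28.6 and 24.3 CPM in the knock-out and 22.5, 35.4 and 24 CPM in the wild type. In both, the genotypes overlapped and library 5 was the highest. Ebp (ENSMUSG00000031168, chrX:8185329-8193512, minus strand), the isomerase that shifts the ring double bond, was among the steadiest of the synthesis genes, with 34.6, 33.0 and 33.4 CPM in the knock-out and 38.7, 48.2 and 38.4 CPM in the wild type. All knock-out values were lower, at a log2 fold change of -0.31 ± 0.11 (SE; edgeR adjusted p = 0.0825). Its promoter (chrX:8193513-8193762, minus strand, GRCm38.p6) also holds a pair of CCAAT boxes (capitals), 170 and 55 bases before the start, on the same strand as each other, unlike those of Mvd.
Ebp: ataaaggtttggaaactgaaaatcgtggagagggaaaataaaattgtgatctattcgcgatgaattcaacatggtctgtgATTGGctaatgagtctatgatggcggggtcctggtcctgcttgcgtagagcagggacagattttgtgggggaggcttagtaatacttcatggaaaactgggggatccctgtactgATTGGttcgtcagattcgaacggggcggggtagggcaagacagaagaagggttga

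The closing enzymes went apart in their values without passing the test. Sc5d, the desaturase, had 112, 64.0 and 58.0 CPM in the knock-out and 79.5, 115 and 78.4 CPM in the wild type, so that knock-out library 1 was level with wild-type library 5 and libraries 2 and 3 were lowest. Dhcr7, the reductase that finishes the route through dehydrocholesterol, had 12.9, 17.3 and 15.9 CPM in the knock-out and 9.63, 13.7 and 9.08 CPM in the wild type. Its log2 fold change was the highest of the members, 0.51 ± 0.21 (SE; 95% interval -0.0018 to 1.01; edgeR adjusted p = 0.119), with knock-out library 1 lying below wild-type library 5.

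**Figure D2:**
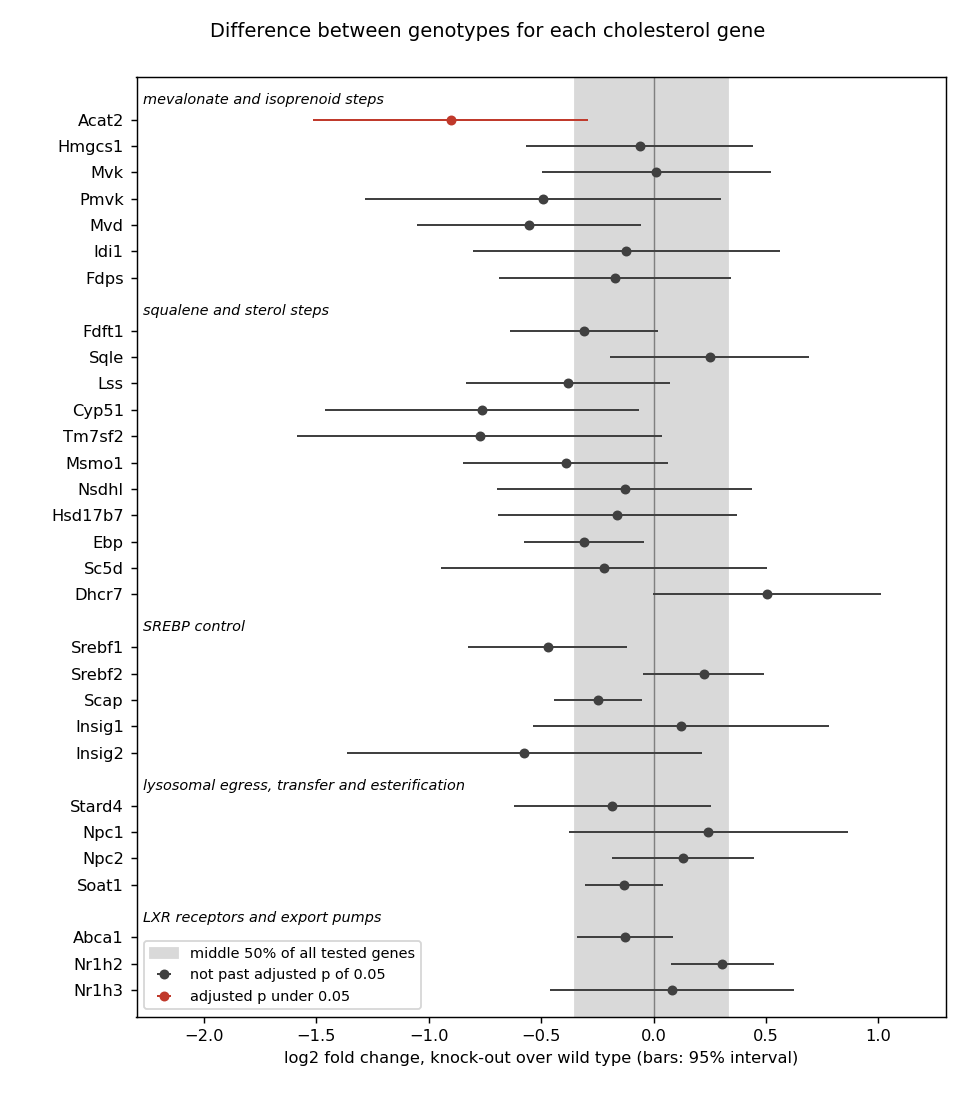
Points give the log2 fold change of each tested member, knock-out over wild type, with 95% intervals, and the grey band spans the middle 50% of all tested genes (-0.35 to 0.33). Acat2 (red) is the only member past an adjusted p of 0.05, and Tm7sf2, Cyp51, Insig2 and Mvd lie next to it on the left.

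None of the 5 genes of SREBP control was called, although 2 had an unadjusted p under 0.05. Srebf1 (ENSMUSG00000020538, chr11:60199089-60222581, minus strand) encodes SREBP-1, the form that serves fatty acid genes most, and had 124, 92.2 and 88.2 CPM in the knock-out and 138, 148 and 134 CPM in the wild type. The knock-out was lower without overlap, library 1 being nearest to the wild type, at a log2 fold change of -0.47 ± 0.14 (SE; edgeR adjusted p = 0.0586). Srebf2 encodes SREBP-2, the main factor for cholesterol genes, and had 260.2, 289.6 and 276 CPM in the knock-out and 223, 269.6 and 216 CPM in the wild type, at 0.22 ± 0.11. The 2 factors thus had log2 fold changes of opposite sign, neither past the threshold here. Srebf1 passed it, and Srebf2 did not, with DESeq2 (adjusted p = 0.0151 for Srebf1), with the title number as a block (0.0161), with title prefixes summed and without knock-out library 1 (0.000176; 0.000176 to 0.342 over all alternatives). Scap, their escort, had 157, 135 and 141 CPM in the knock-out and 172, 169.6 and 173 CPM in the wild type. Its 3 wild-type values were within 4 CPM of each other and all above the knock-out, at a log2 fold change of -0.25 ± 0.079 (SE; edgeR adjusted p = 0.0657; 0.00101 to 0.446 over all alternatives). Scap shares 985 exon bases with 5830462I19Rik on the opposite strand.

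The genes of the SREBP-restraining INSIG proteins had unlike layouts across libraries. Insig1, itself a classic target of SREBP, had 143, 197 and 176 CPM in the knock-out and 128, 224 and 122 CPM in the wild type, with library 5 the highest of all and knock-out libraries 2 and 3 next. Insig2 had 104, 53.2 and 44.4 CPM in the knock-out and 105, 98.3 and 97.8 CPM in the wild type. For Insig2 knock-out library 1 sat among the wild-type values and libraries 2 and 3 well beneath them, so the log2 fold change was -0.57 ± 0.32 (SE; edgeR adjusted p = 0.225) with library 1 and -1.05 (adjusted p = 9.1e-05; 9.1e-05 to 0.631 over all alternatives) without it.

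Among the genes of lysosomal egress, transfer and esterification none of 4 was called. Npc2, the soluble lysosomal carrier that hands cholesterol to NPC1, had 322, 419 and 414 CPM in the knock-out and 342, 382 and 331 CPM in the wild type. Npc1, the membrane protein that lets it out, had 53.1, 103 and 99.3 CPM in the knock-out and 69.4, 75.6 and 70.6 CPM in the wild type. In both genes knock-out libraries 2 and 3 were above all wild-type values and library 1 was below them. The log2 fold changes were 0.13 ± 0.13 for Npc2 and 0.24 ± 0.25 for Npc1 (SE; edgeR adjusted p = 0.473 and 0.497). Npc1 shares 511 exon bases with Rmc1 on the opposite strand. Stard4, a soluble sterol carrier of the cytosol, had 37.1, 43.5 and 39.4 CPM in the knock-out and 39.9, 58.1 and 38.2 CPM in the wild type, highest in library 5. Soat1, which esterifies cholesterol for storage in droplets, had 109, 119 and 108 CPM in the knock-out and 119, 124 and 125 CPM in the wild type. Its groups did not overlap, but knock-out library 2 lay within 1 CPM of library 4 and the log2 fold change was -0.13 ± 0.071 (SE; edgeR adjusted p = 0.204).

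Neither LXR receptor and neither pump was called. Nr1h2, LXR beta, had 78.0, 94.6 and 92.6 CPM in the knock-out and 72.5, 70.6 and 71.2 CPM in the wild type. It was the only member with every knock-out value above every wild-type value, at a log2 fold change of 0.31 ± 0.093 (SE; edgeR adjusted p = 0.0565). DESeq2, the block and the fit without knock-out library 1 placed it past the threshold (adjusted p = 0.0223 with DESeq2; 0.00037 to 0.39 over all alternatives). Nr1h3, LXR alpha, was scarcer on the CPM scale, at 8.14, 8.30 and 7.08 CPM in the knock-out and 6.15, 9.70 and 6.35 CPM in the wild type, with overlap. Abca1 (ENSMUSG00000015243, chr4:53030787-53159895, minus strand), the pump that loads cholesterol onto lipid-poor apolipoprotein, had 111, 118 and 131 CPM in the knock-out and 128, 128 and 138 CPM in the wild type, and its log2 fold change of -0.13 ± 0.087 has a 95% interval of -0.34 to 0.086.

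The promoters of Abca1 (chr4:53159896-53160145, minus strand) and of RefSeq start 3 of Srebf1 (chr11:60210472-60210721, minus strand; both GRCm38.p6) are shown because Abca1 and Srebf1 are textbook targets of LXR and both windows hold the LXR element (capitals; NGGTNA, any 4 bases, then NGGTCA, here on the opposite strand), 67 and 182 bases before the start. The motif was written to cover the known elements of these same genes, so their match is no independent result. It is present in 0.177% of all 32851 starts.
Abca1: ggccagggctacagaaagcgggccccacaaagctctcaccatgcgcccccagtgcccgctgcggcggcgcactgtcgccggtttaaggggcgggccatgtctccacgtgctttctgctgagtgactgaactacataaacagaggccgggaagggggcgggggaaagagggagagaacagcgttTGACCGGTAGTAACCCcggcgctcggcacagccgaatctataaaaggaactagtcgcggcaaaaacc
Srebf1: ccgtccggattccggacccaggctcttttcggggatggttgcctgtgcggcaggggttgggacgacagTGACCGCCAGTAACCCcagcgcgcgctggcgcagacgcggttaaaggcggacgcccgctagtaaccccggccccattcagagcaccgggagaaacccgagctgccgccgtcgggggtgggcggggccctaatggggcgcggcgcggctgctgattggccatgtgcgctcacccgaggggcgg

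Levels per length of exon separate the set further. In the wild type Npc2 was highest at 107 ± 8.15 RPKM (CPM per kilobase of exon, computed here; SD, n = 3 libraries). Insig1 (58.5 ± 21.3 RPKM), Srebf2 (45.0 ± 5.61), Sqle (44.2 ± 6.41) and Msmo1 (41.4 ± 10.2) came next, none of them apart from its neighbour in this order by more than the larger SD. The lowest tested members were Dhcr7 (3.10 ± 0.722 RPKM), Nr1h3 (3.44 ± 0.929), Hsd17b7 (5.41 ± 1.40) and Tm7sf2 (5.66 ± 1.79), and among neighbours in this order only Nr1h3 and Hsd17b7 lay further apart than their SDs. Of the mevalonate steps Fdps (34.6 ± 10.4), Hmgcs1 (31.3 ± 8.11), Idi1 (28.3 ± 11.5) and Acat2 (27.4 ± 5.67) were the most abundant and did not differ beyond their spread, and Pmvk (6.86 ± 1.84), Mvd (9.93 ± 2.47) and Mvk (12.4 ± 2.52) were lower.

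Within the wild type the synthesis genes shared a layout. All 18 were highest in library 5 of the 3 wild-type libraries, which held for 38.0% of all tested genes, and 15 of the 18 were highest there among all 6 libraries (17.5% of all). The exceptions were Mvk, Sqle and Dhcr7. Library 5 stood at 1.25 to 1.94 times the mean of libraries 4 and 6, with a median of 1.51, whereas over all tested genes the median was 0.996 and percentiles 5 and 95 were 0.717 and 1.44. The widest ratios belonged to Cyp51 (1.94), Idi1 (1.91), Nsdhl (1.66), Tm7sf2 (1.64) and Fdps (1.62), and the narrowest to Ebp (1.25), Sqle (1.26) and Fdft1 (1.32). Between libraries 4 and 6 the same genes differed by a median of 0.10 and at most 0.28 on the log2 scale. The library was singled out after its values were seen and is a single sample, so no test is given.

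Outside synthesis the members were mixed. Insig1 (1.80), Nr1h3 (1.54), Stard4 (1.49) and Srebf2 (1.23) were also higher in library 5 than the mean of 4 and 6. Scap (0.981), Insig2 (0.971), Abca1 (0.966), Nr1h2 (0.983) and Soat1 (1.02) were within 4% of it. Srebf1 (1.09), Npc1 (1.08) and Npc2 (1.14) lay between.

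The same layout appeared in junction and intron reads of the same libraries. Junction reads lie on exons, so they are not independent of the exon reads by which library 5 was singled out. Reads across exon junctions, summed over the 18 synthesis genes, came to 468, 679 and 432 CPM (scaled to the exon reads of the library) in wild-type libraries 4, 5 and 6, and intron reads to 50.5, 71.2 and 52.2. Gene by gene, library 5 was highest for 18 of 18 in junction reads (35.0% of all genes with at least 30 such reads in the wild type) and for 14 of 17 in intron reads (25.6% of all). Cyp51 alone had 1067, 2172 and 908 junction reads and 41, 81 and 37 intron reads in libraries 4, 5 and 6. Intron reads were few for some of these genes, such as Idi1 with 9, 12 and 10, which limits their ranks. Lss held the most, with 304, 508 and 276, and so weighs heavily in the intron sums. In the knock-out the corresponding sums were 444, 395 and 363 junction reads and 58.4, 57.5 and 57.1 intron reads in libraries 1, 2 and 3. Junction reads were thus below those of wild-type libraries 4 and 6 in 2 of the 3 and intron reads above them in all 3. Over the members outside synthesis library 5 was also the highest wild-type library. Their junction sums were 733, 801 and 727 CPM and their intron sums 48.9, 62.2 and 53.1 in libraries 4, 5 and 6.

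**Figure D3:**
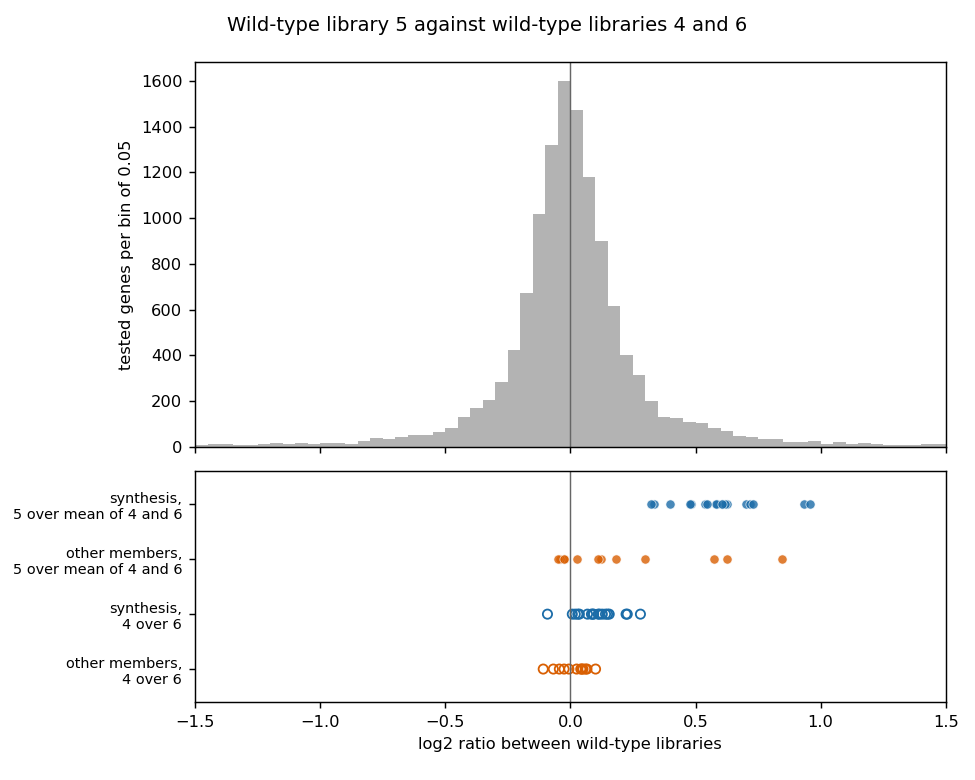
The upper panel counts all tested genes by the log2 ratio of wild-type library 5 to the mean of libraries 4 and 6, and the lower panel places the members by that ratio (filled) and by the ratio of library 4 to 6 (open). The 18 synthesis genes (blue, filled) lie between 0.32 and 0.96, while all tested genes centre on -0.0057.

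Library 5 differed in other respects too. It was the deepest, and all 5 tested smooth muscle markers were lowest in it among the wild-type libraries. The 5 were thus below the mean of libraries 4 and 6, as were 6513 of the 12660 tested genes. The share of all tested genes lowest in library 5, a stricter condition, was not counted. These markers include Acta2, smooth muscle actin (69.2, 51.9 and 101 CPM in libraries 4, 5 and 6), and Cnn1, calponin (1.69, 1.32 and 3.20 CPM). Smtn was lowest only by a hair (63.8, 63.6 and 74.4 CPM). The 9 listed summed to 156, 136 and 206 CPM. Of the 7 fibroblast markers 5 were above the mean of libraries 4 and 6 in library 5 and 2 below. The ratios ran from 0.776 for Col3a1 and 0.896 for Dcn to 3.68 for Lum and 4.56 for Dpt. Dpt had 11, 52.6 and 11.9 CPM and Lum 9.90, 35.4 and 9.22 CPM (these markers were singled out after their values were seen), while the fibroblast markers summed to 4635, 4484 and 4618 CPM and the mesothelial and epithelial markers to 2397, 2369 and 2478 CPM. The part of depth and of these markers in the layout was not tested. Its title holds a 1 after the p number, as does that of knock-out library 1, where those of the other 4 libraries hold a 2, which the labels do not explain. In knock-out library 1 the synthesis genes were mixed, and 9 of the 18 were highest in it and 6 lowest among the knock-out libraries, with a median log2 ratio to libraries 2 and 3 of 0.053 (range -0.36 for Hsd17b7 to 0.88 for Sc5d).

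The promoters of the members were read for the same letters. RefSeq starts (GRCm38.p6) were matched for 25 of the 31 members, 15 of them synthesis genes, without an entry being Stard4, Npc1, Fdft1, Fdps, Abcg1 and Sqle. Within 250 bases before a start, on either strand, the CCAAT box (CCAAT) was found in 14 of the 15 synthesis genes (93.3%), in 6 of the 10 other members and in 37.5% of all 27025 genes. The 27025 are all genes with a RefSeq start and not only those tested here, so this is another background than in the sections above. Acat2 was the synthesis gene without it. More than 1 CCAAT box was present at 9 of 18 synthesis starts and at 10.1% of all starts. The GC box (GGGCGG), the site of Sp1, was found in 14 of 15 synthesis genes (93.3%), all but Pmvk. It was also found in 7 of the 10 other members (70%) and in 35.4% of all genes. The SREBP element TCACNCCAC occurred in Hmgcs1 alone, and in 1.05% of all starts. These matches describe letters in a window and not bound sites.

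Other genes of sterol and lipid handling were taken from 5 further lists, and their counts are to be read beside the 14.1% higher and 13.7% lower of all tested genes. With 1 library left out these shares moved as well. They were 32.6% and 33.7% without knock-out library 1, 6.15% and 6.35% without 2, and 6.19% and 6.56% without 3. Without wild-type library 4 they were 3.99% and 4.72%, without 5 6.43% and 6.60%, and without 6 5.06% and 5.71%. With title prefixes summed they were 14.2% and 14.8%. Of 14 fatty acid genes served by SREBP-1, 4 fell and none rose, and the median log2 fold change was -0.38. The falls were Acly, which makes cytosolic acetyl-CoA (231, 227 and 216 CPM in the knock-out and 303, 359.9 and 298 CPM in the wild type; -0.51 ± 0.099), Scd2, a desaturase (533, 630.2 and 618 CPM in the knock-out and 818, 1126 and 818 CPM in the wild type; -0.63 ± 0.16), and, named after their values were seen, Acaca (-0.49 ± 0.073) and Elovl5 (-0.27 ± 0.074; log2 fold changes with SE). Their knock-out values were all below the wild type. This count moved with the libraries used, to 1 on leaving out library 2, 3 or 4, to 2 on leaving out library 5 or 6, and 8 lower with 3 higher without knock-out library 1. Acaca was called in each case, whereas without wild-type library 5 the adjusted p was 0.0623 for Scd2 and 0.126 for Elovl5 (edgeR). Of 12 further sterol and isoprenoid enzymes 1 rose and 1 fell, both of them makers of oxysterols. Cyp27a1 had 5.41, 7.21 and 6.60 CPM in the knock-out and 2.32, 2.10 and 1.67 CPM in the wild type (1.66 ± 0.22; edgeR adjusted p = 0.00576) and Ch25h had 0.996, 1.84 and 2.13 CPM in the knock-out and 15.8, 27.2 and 14.5 CPM in the wild type (-3.54 ± 0.40; edgeR adjusted p = 0.00357). The median of that list was -0.15. Both calls held with each library left out, and without knock-out library 1 the list had 2 higher and 3 lower.

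Of 10 genes that process or degrade the SREBP machinery, 1 rose and 3 fell (median -0.038). The proteases that cut SREBP in turn moved in opposite directions. Mbtps1, which cuts in the Golgi lumen, had 246, 271 and 283 CPM in the knock-out and 169.5, 176 and 175 CPM in the wild type (0.62 ± 0.079; edgeR adjusted p = 0.00494), and Mbtps2, which cuts within the membrane afterwards, had 41.6, 42.9 and 44.5 CPM in the knock-out and 59.4, 58.7 and 59.3 CPM in the wild type (-0.46 ± 0.061; edgeR adjusted p = 0.00552). Rnf145, a ubiquitin ligase of the endoplasmic reticulum, fell (-0.51 ± 0.14), as did Erlin2 (-0.41 ± 0.095), named after its value was seen. With 1 library left out both protease calls held, while the count of falls was 5 without knock-out library 1 and 1 without any of the others.

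Among 12 other partners and targets of LXR, 9 were tested, 3 rose and 3 fell (median 0.36). Pltp, the phospholipid transfer protein, had 134, 235 and 246 CPM in the knock-out and 50.7, 46.3 and 46.5 CPM in the wild type (2.10 ± 0.24; edgeR adjusted p = 0.0038), and Smpdl3a, a phosphodiesterase, had 24.4, 7.02 and 8.14 CPM in the knock-out and 1.29, 2.63 and 1.62 CPM in the wild type (2.83 ± 0.60). Lpl, lipoprotein lipase, had 3.46, 1.93 and 1.49 CPM in the knock-out and 72.9, 67.1 and 67.5 CPM in the wild type (-4.90 ± 0.31; edgeR adjusted p = 0.000749), and Arl4c had 38.6, 11.8 and 12.4 CPM in the knock-out and 65.1, 73.5 and 66.6 CPM in the wild type (-1.71 ± 0.49). Rxra, the dimer partner of LXR, rose (0.48 ± 0.099) and Lpcat3 fell (-0.70 ± 0.11), both named after their values were seen. With 1 library left out the counts were 5 higher and 3 lower without knock-out library 1, 2 and 2 without knock-out library 2 or 3, and 1 and 2 without any wild-type library. Pltp, Lpl and Lpcat3 were called in each case.

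Of 22 other genes of uptake and sterol transport 19 were tested, 5 rose and 4 fell (median 0.059). Cav1, the caveolar coat protein, had 428, 345 and 370.2 CPM in the knock-out and 134, 112 and 156 CPM in the wild type (1.51 ± 0.15; edgeR adjusted p = 0.00262), and Osbpl1a, an oxysterol-binding relative, had 57.5, 111 and 113 CPM in the knock-out and 35.2, 36.8 and 38.3 CPM in the wild type (1.35 ± 0.26). Olr1, a receptor for oxidised lipoprotein, had 3.42, 3.06 and 1.86 CPM in the knock-out and 163, 143 and 154 CPM in the wild type (-5.77 ± 0.24; edgeR adjusted p = 0.000278), the deepest fall in these lists, and Gramd1c, a carrier from the plasma membrane, fell from a low level (-2.81 ± 0.25). Among genes named after their values were seen, Lrp1, an endocytic receptor, rose (2492, 4479.8 and 4658 CPM in the knock-out and 1682, 1699 and 1824 CPM in the wild type; 1.16 ± 0.25), as did Lipa, the lysosomal esterase (301, 269 and 274 CPM in the knock-out and 129.6, 121 and 139 CPM in the wild type; 1.12 ± 0.088) and Scarb2 (0.64 ± 0.10), while Nceh1, an esterase of the endoplasmic reticulum (-1.53 ± 0.30), and Stard3 (-0.53 ± 0.079) fell. The counts became 8 higher and 8 lower without knock-out library 1, 3 and 3 without knock-out library 2 or wild-type library 5, 3 and 4 without knock-out library 3, and 2 and 3 without wild-type library 4 or 6. Cav1, Lipa, Olr1, Gramd1c and Stard3 were called in each case. With title prefixes summed they were 5 and 7. With each close pair of libraries summed, Olr1 was the only gene of these 5 lists still called (edgeR adjusted p = 0.0395, the highest over all its alternatives), in a fit that called 0.130% of all genes. The mesothelial and epithelial markers were lower in the same libraries, and their part in these differences was not tested.

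**Figure D4:**
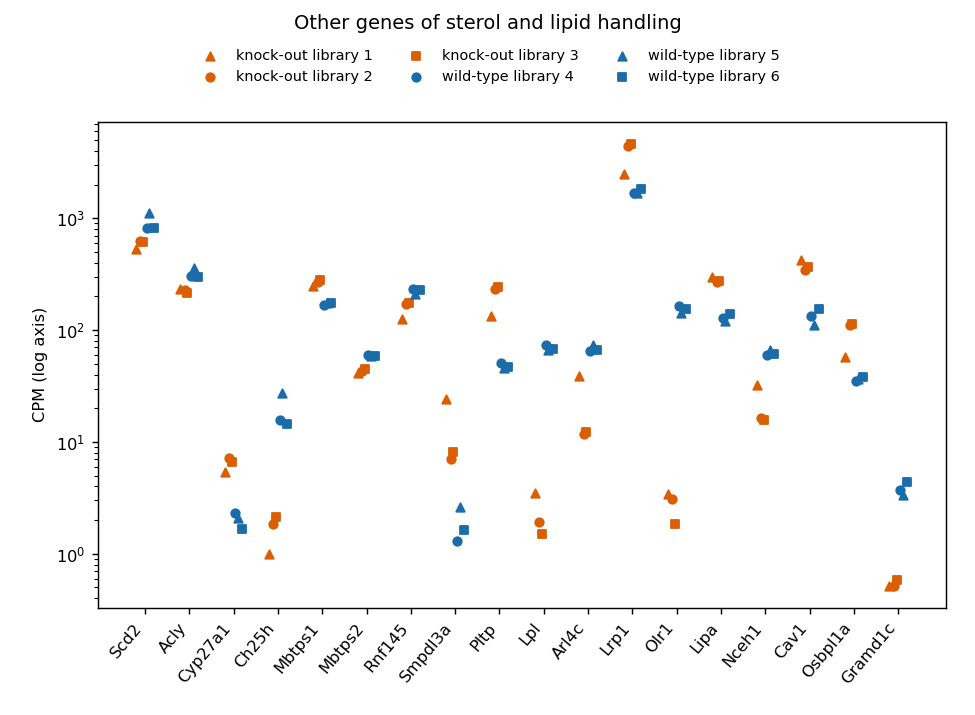
CPM on a log axis in each of the 6 libraries for 18 genes of the further lists, orange for knock-out and blue for wild type. Olr1 and Lpl separate the genotypes most widely (3.42, 3.06 and 1.86 against 163, 143 and 154 CPM for Olr1), and knock-out library 1 lies between its group and the wild type for Arl4c, Nceh1 and Osbpl1a.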

How the data were processed

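Stranded libraries were prepared from polyadenylated RNA, per the labels' protocols. The deposited table gives, for each gene and library, counts made by the authors: total and unique exon reads, exon junction reads and intron reads, with exon length (other deposited value, in bases) and coordinates. Coordinates follow GRCm38 (mm10), a build named in the submitters' processing notes. The sources used here give no aligner, counting tool or use of strand, and 11 members share exon bases with another gene, 8 of them on the opposite strand. Of the members, 27 had over 99% unique reads. All 31 had the coordinates of GENCODE M21.

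Total exon reads of all 6 libraries were tested with edgeR 4.0.16 (R 4.3.3): filterByExpr with a minimum count of 10, TMM scaling, quasi-likelihood F test on genotype, Benjamini-Hochberg adjustment at 0.05 over 12660 genes. SE is the size of the log2 fold change over the root of F. CPM use the TMM-adjusted library size, log2 CPM a prior count of 2. The test was tried on simulated data first. The members and lists were chosen with earlier results of these data known. Named genes are Nt5e, every member, and up to 2 largest rises and falls per further list, with exceptions stated. Promoter sequences come from RefSeq (GRCm38.p6). Alternatives were DESeq2 1.42.0, limma-voom (limma 3.58.1), other scalings and filters, unique reads, a title number (1 or 2) as a block, close pairs summed, each library left out and, chosen after seeing the data, libraries of one title prefix summed. Plots used matplotlib 3.10.9 in Python 3.11.15.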

Additional observations from a re-analysis of the deposited data

How the results depend on the processing

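Each member's log2 fold change was recomputed under 16 alternatives, and 427 of 480 values kept their direction and side of the threshold. The count of members higher in the knock-out, 0, became 1 with DESeq2 (Nr1h2) and 1 with the title number as a replicate block, and 0 to 4 when 1 library was left out. The count lower, 1, became 2 with total counts, 0 with unique reads, 4 with DESeq2 (Acat2, Cyp51, Scap and Srebf1), 7 with the block, 0 with close pairs summed, 4 with title prefixes summed (chosen after seeing the data), and 0 to 9 with 1 library left out (0 in each case but knock-out library 1). Over all genes the 3524 calls became 17 with pairs summed and 1120 to 8486 with 1 library left out. Members without overlap, 11, numbered 11 to 19 with 1 library left out, 19 without knock-out library 1 and 17 without wild-type library 5, and 19 with title prefixes summed, where each genotype has only 2 units. Fewer libraries make non-overlap easier for any gene. The matching shares of all tested genes were not counted, so these larger numbers are no result about the members. Signs turned in 19 values of 9 members, none past the threshold: Mvk (-0.073) and Nr1h3 (-0.011) with total counts, Mvk (-0.038) with title prefixes summed, Insig1 (-0.077) and Nr1h3 (-0.0035) with pairs summed, and on leaving out 1 library the ranges were -0.18 to 0.17 for Hmgcs1, -0.18 to 0.19 for Mvk, -0.32 to 0.26 for Idi1, -0.30 to 0.10 for Fdps, -0.30 to 0.16 for Nsdhl, -0.29 to 0.070 for Hsd17b7, -0.036 to 0.46 for Insig1, -0.29 to 0.034 for Stard4 and -0.036 to 0.33 for Nr1h3. The causes were not tested. With 3 libraries a genotype, 2 of them nearly alike, members whose true change is small may go uncalled, and the closeness of the pairs bears on every p-value. Counts of low members such as Tm7sf2, Pmvk and Nr1h3 (101 to 412 reads a library over these 3) limit their precision.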

Other observations

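Genes of the further lists were also set side by side across the wild-type libraries, after the layout of the members had been seen and with no test. Of the 14 fatty acid genes, 12 were highest in wild-type library 5 (85.7%), against 38.0% of all tested genes. Fasn, the fatty acid synthase, had 362, 485 and 353 CPM in libraries 4, 5 and 6, Scd2 had 818, 1126 and 818 CPM, and Elovl6, an elongase, had 33.1, 51.1 and 34.1 CPM. The exceptions were Acss2 and Gpam, an acyltransferase, with 271, 210.3 and 271 CPM for Gpam. The median ratio over the list of library 5 to the mean of 4 and 6 was 1.08, lower than the 1.51 of the cholesterol synthesis genes. Of the 19 tested genes of uptake and sterol transport 7 were highest in library 5 (36.8%) and in the list of other LXR partners and targets 3 of 9 (33.3%), shares near that of all tested genes. In the uptake list the ratio of library 5 to the mean of 4 and 6 ran from 0.774 for Cav1 to 1.94 for Lrp8, a lipoprotein receptor.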
